A study of Mus musculus with 282 samples.

Results

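Livers with a liver knockout of Tsc1 were compared with Albumin-Cre control livers in 36 of the 282 libraries of the series, 18 per genotype, chosen as the 2 uninjected night-fed groups carrying these labels. The series measured polyadenylated RNA at its 3' ends in livers of male mice labelled as of the C57BL/6J strain, kept in single cages under alternating light and dark. Mice of both genotypes had food at night alone and received no drug. Livers were taken at zeitgeber time (ZT, hours after lights on) 2, 6, 10, 14, 18 and 22, with 3 mice per genotype and time. The control mice are labelled as Albumin Cre, a transgene in which the hepatocyte promoter of the albumin gene drives Cre recombinase, and the other group as a liver knockout of TSC1, called Tsc1 knockout below. Neither the mice's ages nor the Tsc1 allele and Cre line of the knockout are stated in the labels. Cre driven by this promoter acts in hepatocytes and bile duct cells, and where it is used the other cells of the liver keep the gene.

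Tsc1 encodes hamartin, which with tuberin forms a complex that switches off the small GTPase Rheb, the direct activator of the growth kinase complex mTORC1. Without the complex mTORC1 no longer falls silent when insulin and growth signals drop. In liver mTORC1 is known to raise protein synthesis and the translation of messages with a 5' oligopyrimidine tract (TOP), to restrain autophagy and the lysosomal transcription factors TFEB and TFE3, to raise ATF4, a transcription factor of amino acid supply, and to dampen insulin signalling through feedback on its receptor substrates.

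Depth was 6.71 to 9.67 M reads per Albumin-Cre library (median 7.92 M) and 6.27 to 10.6 M per knockout library (median 8.30 M). The highest correlation among the 630 pairs of libraries was 0.987. The first principal component, with 19.7% of the variance, separated the genotypes. In weights that limma estimates from each library's scatter, 3 libraries stood apart: Albumin-Cre ZT 10 replicate 2 (weight 0.118), knockout ZT 14 replicate 1 (0.261) and Albumin-Cre ZT 6 replicate 3 (0.364). Levels below are reads per 1000000 reads (RPM) after rescaling, and differences are log2 values of RPM plus 0.5, knockout minus Albumin-Cre, given with their standard error.

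Tsc1 itself (chromosome 2, 28641228 to 28691167, GRCm38) was read in every library. Its lowest, median and highest levels were 9.28, 14.9 and 22.7 RPM in Albumin-Cre and 3.70, 7.51 and 11.2 RPM in knockout livers. The 2 ranges overlapped only between the upper knockout and the lower control libraries. The daily mean, which weights the 6 times equally, fell by 0.98 on the log2 scale (SE 0.09; limma adjusted p = 1.47e-09), to 0.507 of the control level, and the difference was negative at 6 of 6 times. The labels do not say which exons are deleted, so a tag from the 3' end does not by itself check the deletion. In whole liver, fewer cells of a type and less RNA per cell cannot be told apart.

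Across the 12510 genes that averaged 1 RPM or more, the daily mean of 4784 differed at an adjusted p under 0.05 (38.2%), 2578 of them higher (20.6%) and 2206 lower (17.6%) in the knockout. Without the 3 libraries that stood apart the count was 5343. At least 1.5-fold changes were fewer (7.96%), 597 higher (4.77%) and 399 lower (3.19%). In 71 genes (0.568%) all 18 knockout libraries were above all 18 controls, and in 37 (0.296%) all were below. Of the called genes 3532 (73.8%) had the same sign at all 6 times. The median difference over all genes tested was 0.0066. Within 10 Mb of Tsc1, 71 of 202 tested genes were called (35.1%), against 38.5% on the other chromosomes.

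**Figure D1:**
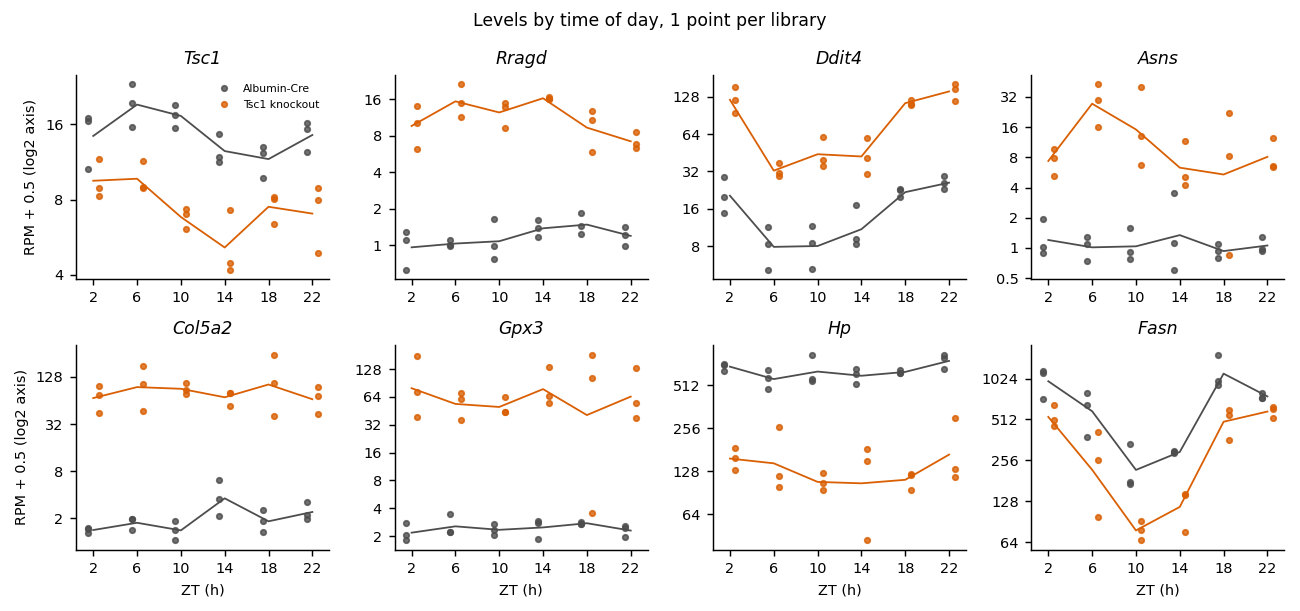
Levels of 8 genes by zeitgeber time (h), as RPM plus 0.5 on a log2 axis. Each point is a library (3 per genotype and time), and lines join the means of the log2 values. Rragd, Col5a2 and Hp are separate in all libraries, 1 knockout library of Gpx3 lies just above the controls, and Fasn keeps its daily course at a lower level in the knockout.

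The largest rise among named genes was that of Col5a2, which encodes a chain of the fibrillar collagen V (chromosome 1, 45374321 to 45503282). Its lowest, median and highest levels were 0.546, 1.39 and 5.73 RPM in Albumin-Cre and 40.4, 79.7 and 247 RPM in knockout livers. No library of one group reached the other, and the difference was 5.38 ± 0.19 (limma adjusted p = 9.77e-19). Gpx3, the secreted selenium-dependent glutathione peroxidase that liver normally makes little of, had 1.30, 2.0 and 2.92 RPM in controls and 3.07, 61.8 and 183 RPM in the knockout. Its groups were separate as well, although knockout ZT 18 replicate 2, at 3.07 RPM, lay close to the controls. The Gpx3 difference was 4.61 ± 0.31 (adjusted p = 1.84e-12). Gdpd3, a lysophospholipase D of the endoplasmic reticulum, had 0.0996, 0.246 and 1.62 RPM in controls and 7.91, 22 and 32.9 RPM in the knockout, again with no overlap and a difference of 4.48 ± 0.19. Sult5a1, a sulfotransferase named in the list of periportal hepatocyte genes, had 4.71, 10.3 and 19 RPM and 41.6, 165 and 231 RPM, a separation in all libraries and a difference of 3.91 ± 0.20.

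Other large rises came from genes of varied roles. Meg3, a maternally expressed imprinted noncoding RNA, rose by 3.76 (median 2.94 to 31.5 RPM). Cyp46a1, the cholesterol 24-hydroxylase best known from neurons, rose by 3.14 (median 1.29 to 16.4 RPM). Lrp2, the endocytic receptor megalin, rose by 3.22, and Cyfip2, a subunit of the actin-regulating WAVE complex, by 2.85. In these 4 genes no library of one group reached the other. Ctse, an aspartic protease of the endosome, rose by 3.22 and Tff3, a secreted trefoil peptide, by 2.73, both with wide spread: the knockout libraries of Tff3 ran from 0.396 to 139 RPM.

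The named genes that fell furthest had varied roles. Serpina12, the serpin vaspin, had 2.04, 35.2 and 68.0 RPM in controls and 0.244, 3.05 and 9.34 RPM in the knockout, a difference of -3.15 ± 0.31 with overlapping ranges (limma adjusted p = 4.40e-09). Hp, which encodes the haemoglobin-binding plasma protein haptoglobin (chromosome 8, 109575128 to 109579172), had 479.9, 645 and 839 RPM in controls and 41.6, 123 and 299.6 RPM in the knockout. Every knockout library lay below every control, and the difference was -2.31 ± 0.15 (adjusted p = 6.69e-13), or 0.202 of the control level. Nat8, an N-acetyltransferase of the endoplasmic reticulum, and Serpina7, the thyroxine-binding globulin of plasma, were also lower in all 18 knockout libraries than in any control, with differences of -2.97 and -2.31. Fitm1, which helps to bud lipid droplets, fell by 2.41 from a median of 29.2 to 5.40 RPM. Camk1d, a calcium-dependent kinase, had a difference of -2.30, Acot3, a peroxisomal acyl-CoA thioesterase, -2.22, and Dct, an enzyme of melanin synthesis, -2.08. Hsd3b5, a steroid dehydrogenase of male liver, stood at -1.99, Tiam2, an activator of the GTPase Rac, at -1.91, Ces2c, a carboxylesterase, at -1.82, and Raet1e and Raet1d, ligands of an activating receptor of natural killer cells, at -1.88 and -1.80. Exons of Raet1e and Raet1d overlap on the same strand and the genes have the same annotated 3' end. Their tags could have been shared, so the falls may not be separate.

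Of the 36 tested members of the list of mTOR complexes and upstream regulators, 15 were higher, 2 lower and 19 not called. Their median difference was 0.13, while 20.6% of all genes were called higher and 17.6% lower. The members that rose furthest act at the lysosome or restrain the kinase. Rragd, one of the Rag GTPases that bring mTORC1 to the lysosome, had 0.128, 0.686 and 1.33 RPM in controls and 5.37, 11.6 and 20.9 RPM in the knockout, with no overlap and a difference of 3.26 ± 0.13 (limma adjusted p = 1.34e-17). Its partner Rragc rose by 0.55, and Flcn, the folliculin subunit of the complex that activates RagC and RagD, rose by 1.0. Ddit4 (REDD1), a stress-induced inhibitor of mTORC1, had 4.68, 15.6 and 29.1 RPM and 28.8, 77.5 and 162 RPM and a difference of 2.31 ± 0.12, its lowest knockout and highest control libraries being nearly level. Sesn3, a sestrin that restrains mTORC1, rose by 1.22 with no overlap between the groups, and Castor2, of the arginine sensor family, by 1.03. Mtor fell by 0.23 (adjusted p = 9.73e-04).

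Among 27 tested genes of insulin signalling and mTORC1 substrates 7 were higher and 3 lower, beside 20.6% and 17.6% of all genes. Both translation repressors that mTORC1 phosphorylates rose, Eif4ebp1 by 0.89 ± 0.06 and Eif4ebp2 by 0.91 ± 0.08. The kinase gene Akt1 rose by 0.69 and the receptor substrate gene Irs2 by 0.56. Of 20 tested FOXO and fasting targets, genes that insulin normally holds down, 9 were higher and 1 lower, with a median of 0.49 against 0.0066 over all genes. Enho, the secreted peptide adropin, rose by 3.52 with no overlap, from a median of 0.808 to 17.3 RPM. Depp1, a FOXO-induced peroxisomal protein, rose by 1.47, Igfbp1, an insulin-repressed binding protein of insulin-like growth factors, by 1.16, G6pc, the last step of glucose release, by 0.69, and Ppargc1a, a coactivator of gluconeogenesis, by 0.67. Gadd45a, a stress-response gene of this list, fell by 0.42.

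**Figure D2:**
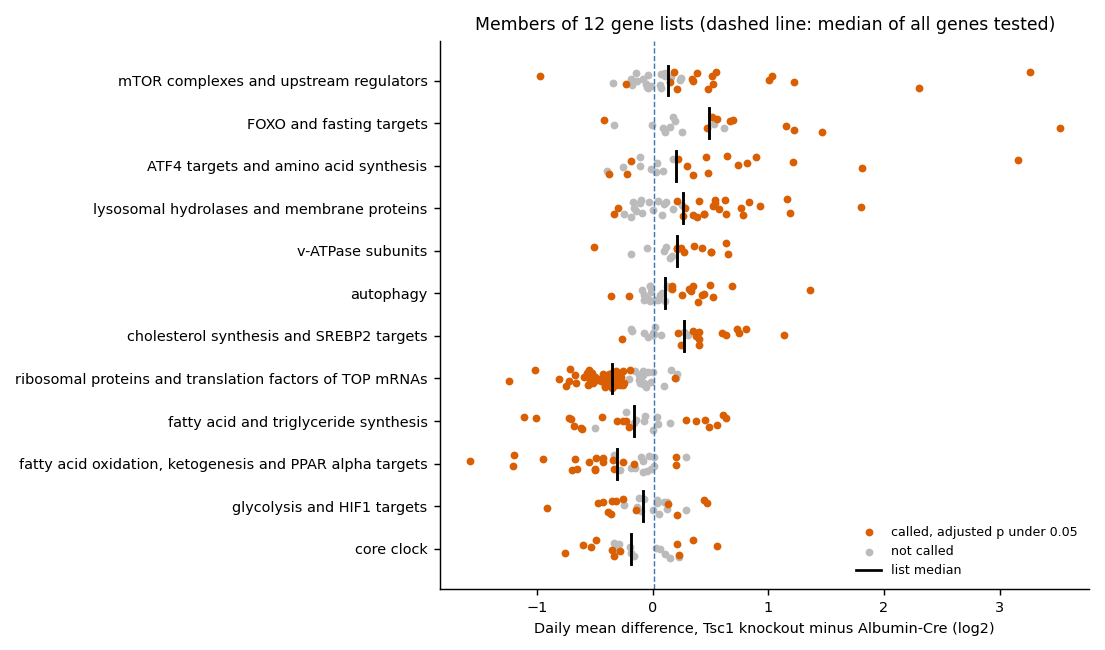
Daily mean differences (log2, knockout minus Albumin-Cre) of the tested members of 12 gene lists. Points are genes, orange where called, black bars are list medians and the dashed line is the median of all genes. The ribosomal list lies to the left, with 54 of 73 lower, and the lysosomal list to the right, with 21 of 39 higher. Of all genes tested 17.6% were called lower and 20.6% higher.

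Lysosomal genes were called higher more often than lower. Of 39 tested lysosomal hydrolases and membrane proteins 21 were higher, 2 lower and 16 not called (median 0.26). Over all genes 20.6% were called higher and 17.6% lower. In 6 of the 39 every knockout library lay above every control, against 0.568% of all genes. Ctsz, the lysosomal protease cathepsin Z, had 52.1, 67.4 and 111 RPM in controls and 127, 154 and 241 RPM in the knockout, with no overlap and a difference of 1.19 ± 0.07 (limma adjusted p = 6.16e-14). Lamp2, a protein of the lysosomal membrane, had 227, 320.0 and 375 RPM and 399.6, 456 and 525 RPM, a smaller difference of 0.52 ± 0.04 that was as cleanly separated. The protease gene Ctsl rose by 1.16, Hexa by 0.93 and the sialidase Neu1 by 0.78. Ctsz overlaps exons of Nelfcd on the other strand, where the difference was -0.35. Scarb2 and Idua fell, by 0.30 and 0.34.

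Subunits of the proton pump that acidifies lysosomes followed the same direction: 10 of 17 v-ATPase genes were higher and 1 was lower (median 0.21). This and the autophagy count below stand beside 20.6% of all genes called higher and 17.6% lower. Atp6v1d rose by 0.65 ± 0.04, Atp6v0b by 0.63 and Atp6v1a, the catalytic subunit, by 0.51. The lower one was Atp6v0d2, at -0.51. Wild-type medians, on the scale over 4 groups used below, lay nearer to the knockout for some subunits. In wild type, Albumin-Cre and Tsc1 knockout they were 151, 119 and 166 RPM for Atp6v1a and 152, 123.5 and 177 RPM for Atp6v0b. For Atp6v0e they were 102, 75.3 and 96.3 RPM. Those of Atp6v1d (118, 102 and 160 RPM) and Atp6ap2 (97.2, 84.4 and 121 RPM) lay nearer to Albumin-Cre. Of 31 autophagy genes 13 were higher and 2 lower. Gabarapl1, an ATG8 protein of the autophagosome membrane, had 83.7, 143 and 356 RPM in controls and 216, 405 and 740.1 RPM in the knockout, a difference of 1.36 ± 0.08. Its relative Gabarap rose by 0.45, every knockout library lying above every Albumin-Cre library, though not above the wild-type livers described below. The selective autophagy receptors Tex264 and Sqstm1 rose by 0.68 and 0.39, and the initiating kinase Ulk1 by 0.43. Ulk2 fell by 0.21 and Atg101 by 0.36.

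TFEB and TFE3 bind the palindrome TCACGTGA, the core of the element called CLEAR, and RefSeq promoters (GRCm38.p6, 250 bases before to 50 after a start) were searched for it on both strands. Of 12510 genes tested, 9051 had a promoter entry, and 2.24% of these held the motif, compared with 2.87% of promoters of genes called higher and 1.49% of those called lower. It was in 3 of 8 promoters of v-ATPase genes called higher (37.5%) and in 3 of 16 of lysosomal genes called higher (18.75%), but in none of the 11 promoters of autophagy genes called higher and none of the 15 of the mTOR list called higher, Rragd and Flcn included. In the whole v-ATPase and lysosomal lists it was in 3 of 11 and 4 of 31 promoters, and since the element was described in lysosomal genes, lists and motif are not independent. The motif contains the E-box CACGTG, which 11.84% of all promoters held. A match describes letters, not binding. Below are the promoter of Ctsa, the lysosomal protective protein, which rose by 0.63 and holds 2 copies, and that of Atp6v1a, with 1 copy, capitals marking the motif. The Ctsa window is chr2:164833523-164833822 on the plus strand and that of Atp6v1a is chr16:44139210-44139509 on the minus strand.
Ctsa: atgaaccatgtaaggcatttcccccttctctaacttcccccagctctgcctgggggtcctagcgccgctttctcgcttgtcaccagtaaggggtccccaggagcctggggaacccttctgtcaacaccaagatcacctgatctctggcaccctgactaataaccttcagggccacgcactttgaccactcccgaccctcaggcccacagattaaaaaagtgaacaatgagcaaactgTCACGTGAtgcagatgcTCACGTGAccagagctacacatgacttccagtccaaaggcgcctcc
Atp6v1a: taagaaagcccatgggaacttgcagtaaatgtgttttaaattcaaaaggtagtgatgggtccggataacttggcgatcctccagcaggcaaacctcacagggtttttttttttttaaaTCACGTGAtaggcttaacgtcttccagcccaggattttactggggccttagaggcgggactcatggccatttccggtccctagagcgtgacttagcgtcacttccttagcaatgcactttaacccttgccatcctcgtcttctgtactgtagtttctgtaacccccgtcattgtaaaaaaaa

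Of 24 tested ATF4 targets and genes of amino acid synthesis 12 were higher and 3 lower (median 0.20). Asns, asparagine synthetase, had 0.110, 0.504 and 3.05 RPM in controls and 0.358, 8.48 and 42.7 RPM in the knockout, a difference of 3.16 ± 0.30 (limma adjusted p = 2.16e-09). The ranges overlapped through a single knockout library, ZT 18 replicate 1, at 0.358 RPM. Wild-type livers overlapped the knockout more widely. On the scale over 4 groups used below, Asns medians were 2.46 in wild type, 0.807 in Albumin-Cre and 13.2 RPM in the Tsc1 knockout. The highest wild-type library, at 27.6 RPM, lay above that knockout median. By time the mean difference of Asns from Albumin-Cre was 4.75 at ZT 6 and 2.23 at ZT 14, the latter not called (limma adjusted p = 0.0781). Nupr1, a small stress-induced chromatin protein, rose by 1.81 ± 0.17, and Gdf15, a circulating stress hormone that reduces appetite, by 1.22 ± 0.17. Psph, the last step of serine synthesis, rose by 0.82, the mitochondrial folate enzyme gene Mthfd2 by 0.74 and the pseudokinase Trib3 by 0.64. The aminoacyl-tRNA synthetases, also regarded as ATF4 targets, had 6 of 22 higher, 4 lower and a median of -0.0039, shares near the 20.6% and 17.6% of all genes. Aars rose by 0.33 and Dars fell by 0.45.

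The letters TGATGNAA of the ATF4 element were present on either strand in 4 of 11 promoters of the ATF4 list called higher (36.36%), against 2.68% of all promoters and 3.23% of those of genes called higher. The element is known from genes of this list, so list and motif are not independent. The promoters of its 2 furthest risers follow, with the element in capitals. The Asns window is chr6:7693160-7693459 and that of Nupr1 is chr7:126625421-126625720, both on the minus strand, and the Nupr1 element lies in the reverse direction.
Asns: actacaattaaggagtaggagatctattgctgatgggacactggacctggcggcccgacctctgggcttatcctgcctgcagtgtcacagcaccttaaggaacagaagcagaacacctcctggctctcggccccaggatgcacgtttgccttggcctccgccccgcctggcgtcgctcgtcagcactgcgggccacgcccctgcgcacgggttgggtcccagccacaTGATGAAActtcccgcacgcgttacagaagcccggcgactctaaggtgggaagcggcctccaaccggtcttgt
Nupr1: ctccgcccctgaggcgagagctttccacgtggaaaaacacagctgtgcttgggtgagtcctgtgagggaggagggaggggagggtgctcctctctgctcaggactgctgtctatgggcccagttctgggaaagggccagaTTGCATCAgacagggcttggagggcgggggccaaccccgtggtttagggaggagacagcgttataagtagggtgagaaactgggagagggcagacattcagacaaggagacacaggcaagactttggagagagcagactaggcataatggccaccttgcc

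Messages of the translation machinery were lower. Of 73 ribosomal proteins and translation factors with TOP messages 54 were lower, 1 was higher and 18 were not called. Over all genes 17.6% were called lower and 20.6% higher. The list median was -0.35 against 0.0066 over all genes. In 8 of the 73 every knockout library lay below every control, against 0.296% of all genes. Rpl4 had 257, 343 and 404 RPM in controls and 147, 197 and 236 RPM in the knockout, with no overlap and a difference of -0.75 ± 0.07 (limma adjusted p = 7.62e-10). Rps25 had 306, 341 and 388 RPM and 188, 225 and 280.1 RPM, a difference of -0.59 ± 0.05. Rpl3 fell by 0.67, Rpl12 by 0.66 and the elongation factor Eef2 by 0.40, while Rpl6 rose by 0.20. Many of these genes have near-identical processed copies, among which the deposited counting could have split reads, so single values are uncertain. Of 39 ribosome biogenesis genes 11 were lower and 2 higher, beside 17.6% and 20.6% of all genes. The largest of these differences were Heatr1 at 0.58 and Mybbp1a at -0.44.

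Lipid genes divided by pathway, while 20.6% of all genes were called higher and 17.6% lower. Of 29 tested genes of fatty acid and triglyceride synthesis 12 were lower and 7 higher (median -0.17). Fasn, fatty acid synthase, had 170.2, 726 and 1539 RPM in controls and 65.7, 386 and 653 RPM in the knockout, a difference of -1.11 ± 0.14 (limma adjusted p = 4.66e-07). The ranges overlapped, and the level swung over the day in both groups: the mean was 229 against 78.4 RPM at ZT 10 and 1144 against 504 RPM at ZT 18. The malic enzyme Me1, which supplies NADPH, fell by 1.01, the acetyl-CoA carboxylase Acaca by 0.68 and Thrsp by 0.73. The 7 higher members were the SREBP escort Scap (0.55), the SREBP anchor Insig2 (0.61), the desaturases Scd2 (0.64), Fads1 (0.48) and Fads2 (0.37), the phosphatidate phosphatase Lpin1 (0.45) and the second acetyl-CoA carboxylase Acacb (0.29).

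Genes of cholesterol synthesis went the other way, with 13 of 25 higher, 1 lower and a median of 0.27. Fdps, farnesyl diphosphate synthase, had 32.7, 77.8 and 139 RPM in controls and 85.7, 171 and 288 RPM in the knockout, a difference of 1.14 ± 0.12. Sqle, squalene epoxidase, rose by 0.73 ± 0.16, while Pmvk fell by 0.27. Genes of the oxidation list were called lower more often than higher: of 32 tested oxidation, ketogenesis and PPAR alpha target genes 17 fell and 2 rose (median -0.31). Acaa2, the mitochondrial thiolase, had 677, 871 and 1348 RPM and 438, 560.0 and 669 RPM without overlap, a difference of -0.67 ± 0.06. Acot2 fell by 1.58, the pantetheinase Vnn1 by 1.21 and the peroxisomal thiolase Acaa1b by 0.95, whereas Ppara itself rose by 0.20. Acot1, Acot2 and Acot3 are close paralogs whose reads could have been shared.

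In glucose metabolism 9 of 26 tested glycolysis and HIF1 target genes were lower and 4 higher, beside 17.6% and 20.6% of all genes. Egln3, an oxygen-sensing prolyl hydroxylase, fell by 0.92 with no overlap, whereas its relative Egln1 rose by 0.44. Ldha, lactate dehydrogenase A, fell by 0.48. Of 21 genes of glycogen handling and glucose production 7 were lower and 1, G6pc, was higher. Pgm1, which links glycogen to glucose 6-phosphate, had 141, 159 and 279 RPM in controls and 74.5, 96.9 and 121 RPM in the knockout, with no overlap and a difference of -0.80 ± 0.07. Glycogen phosphorylase Pygl fell by 0.54, and Gys2, which makes glycogen, by 0.28. In bile acid synthesis and transport 7 of 20 were higher and 4 lower. Cyp7a1, the rate-limiting enzyme, rose by 1.17 ± 0.22 and Cyp8b1, which forms the cholic acid branch, by 1.2 ± 0.17, and the exporter Abcc3 fell by 0.63.

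Stress and plasma protein genes were mixed, while 20.6% of all genes were called higher and 17.6% lower. Of 26 tested NRF2 and glutathione genes 12 were higher and 3 lower, with Gpx1 at 0.63 and Gstm3 at -0.75. Of 17 p53 targets and stress genes 9 were higher and 1 lower, among them the cyclin Ccne1 (1.01) and the cell cycle inhibitor Cdkn1a (0.94). The proliferation list had 5 of 19 higher and 2 lower. The small heat shock protein Hspb1 rose by 1.37 ± 0.12, while 8 of 23 heat shock chaperones were higher and 3 lower. Of 31 acute phase genes 13 were lower and 8 higher: with Hp, the serum amyloid Saa2 fell by 1.61 and Lcn2 by 1.01, and the haem scavenger Hpx rose by 0.64, Stat3 by 0.64 and Serpina3n by 0.71. In the interferon list 7 of 28 were higher and 4 lower, shares near those of all genes.

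Zonal and sex-biased genes were also examined, beside 20.6% of all genes called higher and 17.6% lower. Of 21 periportal hepatocyte genes 10 were higher and 3 lower, and of 22 pericentral genes 3 were higher and 8 lower. Beside Sult5a1, periportal Cyp2f2 rose by 0.62 and Aldh1b1 by 0.95, but Arg1 fell by 0.42 with no overlap. Pericentral Oat fell by 1.04, Lect2 by 0.80 and Slc1a4 by 0.77, whereas Slc1a2 rose by 0.62. Male-biased genes split evenly, 8 of 25 higher and 8 lower. Serpina12 and Elovl3 (difference -1.03) were among the lower, Cyp4a12a (1.30) and Selenbp2 (1.21) among the higher.

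Markers of other cell types were read beside these groups, with 20.6% of all genes called higher and 17.6% lower. All 15 hepatocyte markers were detected, 5 higher and 2 lower, and their summed level was 81650 to 106700 RPM in controls and 85480 to 122600 RPM in the knockout. Of the 16 tested markers of Kupffer cells and macrophages 1 was higher and 2 lower, with sums of 249.9 to 544.7 and 193.9 to 453.4 RPM. Endothelial markers (18 tested) had 3 higher and 4 lower and sums of 307 to 441.1 and 321.2 to 416.7 RPM. In that list Pecam1 fell by 0.84 with no overlap against Albumin-Cre, and Stab2 rose by 0.70. Medians in wild type, Albumin-Cre and Tsc1 knockout, on the scale over 4 groups used below, were 16.8, 21.69 and 12.4 RPM for Pecam1. For Stab2 they were 40.86, 27.75 and 44.67 RPM. The wild-type libraries of Pecam1, at 10.1 to 24.15 RPM, overlapped those of the knockout, at 5.895 to 15.24 RPM. Stellate cell markers had 1 of 16 higher and 4 lower (sums 333.9 to 446.8 and 299 to 498.9 RPM) and lymphocyte markers 2 of 9 higher and 3 lower (60.8 to 148.4 and 35.97 to 177.3 RPM). Of cholangiocyte markers 3 of 6 tested were higher (sums 811.1 to 1403 and 768.4 to 1419 RPM), and 5 more were under 1 RPM. Of these 3 calls, Epcam lost its call in 20 and Clu in 5 of the 36 fits that each left out 1 library. The cholangiocyte sum was mostly Clu. On the scale over 4 groups used below, its Albumin-Cre median was 1473 RPM, against 13.3 for Spp1 and 0.983 RPM for Epcam. Erythroid markers had 2 of 5 lower (sums 1299 to 4752 and 896.3 to 5145 RPM), and 5 of 6 neutrophil and dendritic cell markers in the table were under 1 RPM. No marker in the table was at 0 in all 36 libraries. The sums overlapped between genotypes in all of these lists. The part of other cells in the differences above was not tested.

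Daily rhythms were compared by the joint test of a 24 h cosine and sine. limma called 0 of 12510 genes as differing in rhythm, with 798 at an unadjusted p under 0.05 (6.38%) and a smallest adjusted p of 0.135. DESeq2 on recovered reads called 13. The difference at night (ZT 14, 18 and 22) minus that by day was also called in 0 genes, with 891 at an unadjusted p under 0.05 (7.12%) and 0 by DESeq2. Tested in each genotype alone, 2884 genes were rhythmic in Albumin-Cre (23.1%) and 3043 in knockout livers (24.3%). They shared 1837, which is 63.7% of the first and 60.4% of the second. Of the shared genes 1554 (84.6%) peaked within 2 h of each other, the median shift was 0.30 h later in the knockout, and the median amplitude was 0.44 in both. A gene called in one genotype alone was not shown to differ.

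All 22 core clock genes were measured. In the daily mean 4 were higher and 7 lower, 38.2% of all genes being called. Of these calls Per3 was lost in 22 and Cry2 in 24 of the 36 fits that each left out 1 library. Arntl (Bmal1), the activator of the loop, had amplitudes of 2.24 in Albumin-Cre and 2.09 in the knockout, peaking at ZT 22.2 and 22.7. Nr1d1 (REV-ERB alpha), its repressor, had amplitudes of 2.64 and 2.72 with peaks at ZT 7.53 and 7.38. Neither gene's rhythm difference passed (limma adjusted p = 0.879 and 0.956). The clock output genes Usp2, a deubiquitinase, and Wee1, a cell cycle kinase, fell in the daily mean by 0.76 and 0.49, and their unadjusted rhythm p-values in limma were 0.00171 and 0.00520 (adjusted 0.368 and 0.473).

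**Figure D3:**
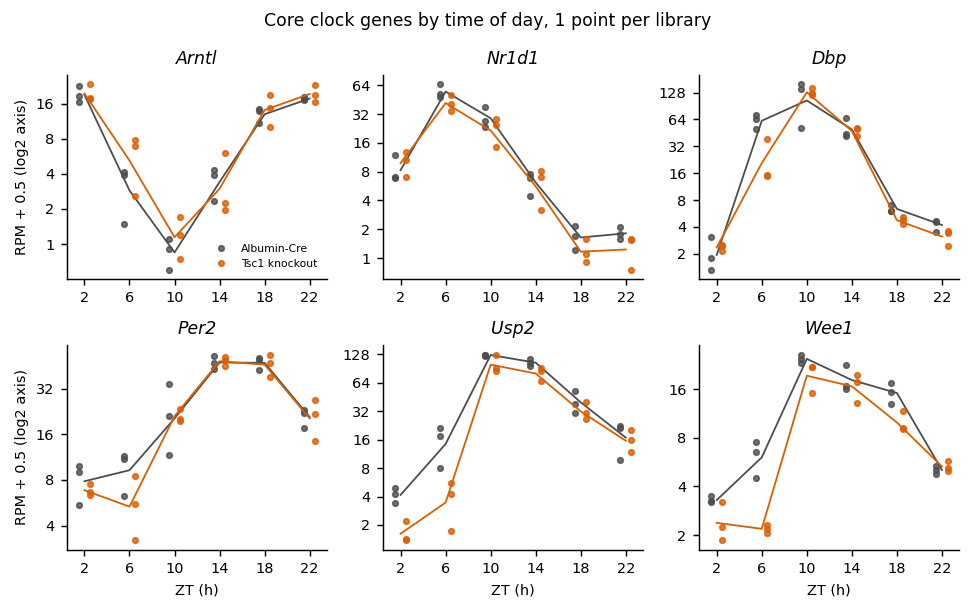
Levels of 6 clock genes by zeitgeber time (h), as RPM plus 0.5 on a log2 axis, with 1 point per library and lines through the means of the log2 values. The courses lie close at most times, and Dbp, Usp2 and Wee1 are lower in the knockout at ZT 6.

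Clock genes were called at single times mostly at ZT 6, a time singled out after the values were seen. At ZT 6 limma called 8 of the 22 lower and 1 higher, beside 3.16% and 3.78% of all genes, while at each other time at most 1 was called in either direction, beside 4.48% of all genes at ZT 2, 8.23% at ZT 10, 5.12% at ZT 14, 5.88% at ZT 18 and 3.97% at ZT 22. The 8 were Per1, Per3, Rora, Dbp, Tef, Ciart, Usp2 and Wee1, and the higher one was Clock. Dbp, a transcription factor driven directly by the loop, had means of 62.1 RPM in Albumin-Cre and 22.6 RPM in the knockout at ZT 6 (n = 3 each), a difference of -1.58 (limma adjusted p = 0.00319). At ZT 10, its peak, the Dbp difference was 0.31 and not called. Usp2 had 15.1 and 3.37 RPM, a difference of -2.06, and Wee1 5.69 and 1.69 RPM, a difference of -1.47. With each ZT 6 library left out in turn 4 to 8 of the 22 were called lower, and Per1, Dbp, Usp2 and Wee1 were among them each time; the lowest was 4 without knockout replicate 1, followed by 5 without Albumin-Cre replicate 2. Over all genes the ZT 6 count of 868 (6.94%) was 495 without Albumin-Cre replicate 2, 564 without Albumin-Cre replicate 3, 552 without knockout replicate 1 and 475 without knockout replicate 3. Exons of Dbp and Nr1d1 overlap those of Sphk2 and Thra on the other strand.

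Levels in 2 further night-fed, uninjected groups of 18 libraries, wild type and liver Raptor knockout, were set beside these with no test, since the knockouts share their controls. RPM in this paragraph are over the genes whose reads could be recovered in all 4 groups and so are higher than above. The median of Col5a2 was 1.95 in wild type, 2.18 in Albumin-Cre, 127 in Tsc1 knockout and 2.71 RPM in Raptor knockout, and that of Rragd 1.53, 1.08, 18.1 and 1.30 RPM. For both, the Tsc1 knockout stood alone, its libraries above all those of the other groups. Hp had medians of 792, 1018, 193 and 1102 RPM in the same order, with every Tsc1 knockout library below the rest. Meg3 did not follow this pattern, at 3.65, 4.62, 49.2 and 30.2 RPM, since its median was also high in the Raptor knockout, where the lowest, median and highest libraries had 0.844, 30.2 and 62.1 RPM. Rpl3 was at 211, 206, 127 and 323 RPM, with the medians of the 2 knockouts on opposite sides of the controls. Of 225 named genes called between knockout and Albumin-Cre, the wild-type median lay nearer to the Tsc1 knockout than to Albumin-Cre in 43, and at or beyond the knockout median in 12 (7 of the higher and 5 of the lower genes). In examples chosen after their values were seen, Lamp2 had medians of 695 RPM in wild type, 506 RPM in Albumin-Cre and 718 RPM in the Tsc1 knockout, and Rpl4 had 391, 541 and 308 RPM. The Lamp2 range of wild type, 535, 695 and 871 RPM at its lowest, median and highest, contained that of the Tsc1 knockout. Gabarap had 131, 163 and 205 RPM in wild type and 123, 139 and 202 RPM in the Tsc1 knockout, so that its separation held against Albumin-Cre but not against wild type. The medians in wild type, Albumin-Cre and Tsc1 knockout were 652, 1153 and 606 RPM for Fasn, 119, 87.9 and 115 RPM for Ulk1, and 22.9, 30.7 and 23.4 RPM for Mybbp1a. For Serpina12 they were 17.25, 55.91 and 4.799 RPM, and for Cyp7a1 142.4, 68.09 and 194.4 RPM. Those of Stat3 were 220.2, 156.3 and 240.7 RPM, of Acot2 26.68, 46.88 and 12.74 RPM, and of Paics 724.8, 525.8 and 721.1 RPM.

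**Figure D4:**
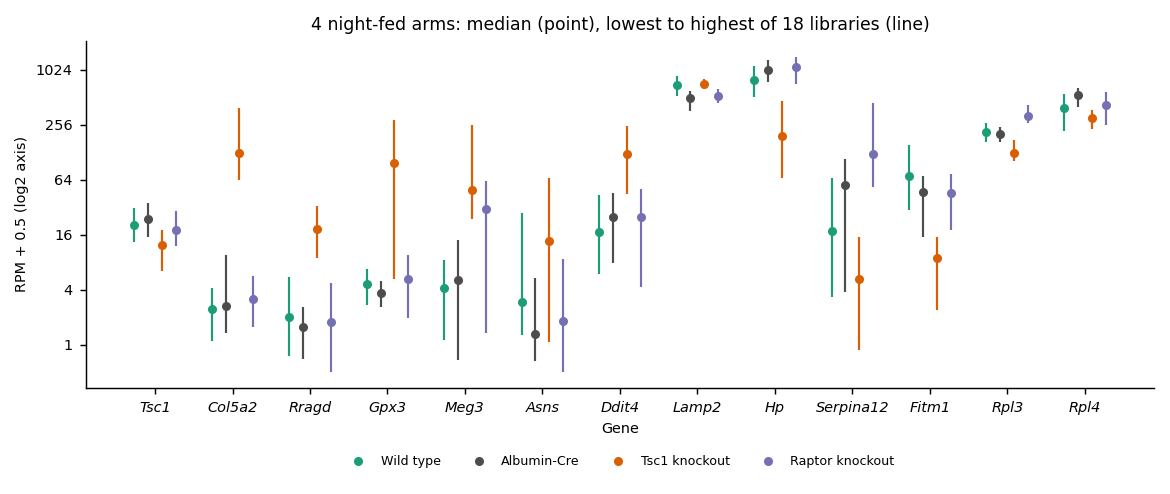
Levels of 13 genes in 4 night-fed groups of 18 libraries, as RPM plus 0.5 on a log2 axis. Points are medians and lines run from the lowest to the highest library. Col5a2 and Rragd are high and Hp low in the Tsc1 knockout alone, the median of Meg3 is high in both knockouts, and the wild-type range of Lamp2 contains that of the Tsc1 knockout.

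Several knockout levels fell into 2 separate sets of libraries, a pattern chosen after the values were seen. Among 8420 tested genes that were rhythmic in neither genotype, 4 had a gap of at least 2 log2 units between adjacent knockout libraries, with 3 or more libraries on each side and a highest level of at least 10 RPM. No gene did so in Albumin-Cre, and with a gap of 1 the counts were 15 and 1. Serpina3c, a serpin from a cluster of close paralogs, was at 2.25 to 11.9 RPM in 11 knockout libraries and at 323 to 505 RPM in the other 7, the controls having 2.91 to 12.5 RPM. Rps3a3, a near copy of a ribosomal protein gene, was at 0.822 to 2.09 RPM in 8 and at 39.3 to 105 RPM in 10 knockout libraries, with 1.17 to 3.40 RPM in controls. The remaining 2 were Rnu3b3 and its second entry Rnu3b3.1, copies of a small nucleolar RNA gene whose reads cannot be told apart. The daily mean does not describe the knockout levels of these genes. The labels give 1 strain for all mice, and whether the knockout and Albumin-Cre mice share the same genetic background was not tested.

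**Figure D5:**
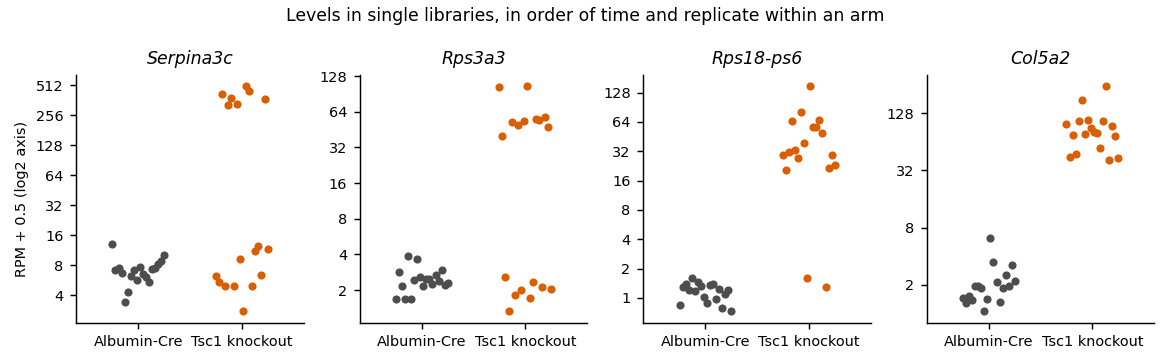
Levels of Serpina3c, Rps3a3, Rps18-ps6 and Col5a2, as RPM plus 0.5 on a log2 axis, with 1 point per library by genotype. Serpina3c and Rps3a3 are among the genes that met the gap rule above. Rps18-ps6 and Col5a2 did not meet it, and Col5a2 was high in all knockout libraries. In the knockout Serpina3c has 11 libraries within the range of low values and 7 at 323 RPM or above, while all Albumin-Cre libraries are at 12.5 RPM or below.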

How the data were processed

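QuantSeq 3' libraries (1 tag per transcript end) of 36 livers were used. The submitters' processing notes name STAR 2.7.3a, SAMtools and the build mm10 (GRCm38.p6). How reads were assigned to genes, the strand setting and the annotation are not stated in the sources used here. The authors deposited a signal per gene, a read count divided by 1 factor per library. Whole reads were recovered for all values of these 36 libraries (within 0.01 read), and rescaled to RPM with edgeR 4.0.16 (TMM). limma 3.58.1 (trend) in R 4.3.3 fitted log2(RPM + 0.5) with a mean per genotype and time (24 residual degrees of freedom) for genes of mean RPM at least 1 (12510 of 15907). Calls are at a Benjamini-Hochberg adjusted p under 0.05 over all genes tested, two-sided. The script was tested on simulated data.

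The labels call samples of a group biological replicates. edgeR and DESeq2 1.42.0 on recovered reads, scalings, filters, blocks and left-out libraries were alternatives. In the Raptor group 219 genes could not be recovered and were left out there. Gene coordinates and exon overlaps are from GENCODE, and promoters from RefSeq, GRCm38.p6. The members, lists and rules were chosen with earlier results of these data known. Named were Tsc1, the clock genes, up to 5 members per list of smallest adjusted p, and the 15 highest and lowest differences with 1 sign at all times. Further list members were named after their values were seen. 3' tags of overlapping or near-identical genes are uncertain.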

Additional observations from a re-analysis of the deposited data

How the results depend on the processing

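The daily mean count of 4784 genes was 4505 to 5189 over other scalings, pseudocounts (0.1 and 2), no filter, edgeR, DESeq2, the replicate block and a fit with the Raptor arm. It was 3167 to 3783 without a replicate number, 4585 to 5034 without single libraries and 5343 without the 3 libraries of lowest weight (added, as were single libraries, after the data were seen). Of 224 named genes called beside Tsc1, 0 to 21 lost their call and 0 reversed under each of these settings other than single libraries (21 of the 222 tested without replicate 3). Without single libraries 9 of 225, Tsc1 included, lost their call at least once. The list counts moved little in most cases: without the 3 libraries 61 ribosomal genes were lower, 22 lysosomal genes higher, 16 mTOR and 13 ATF4 genes higher, 15 cholesterol genes higher and 17 oxidation genes lower. OXPHOS genes were an exception, 11 being lower. The fit with the Raptor arm called 5 heat shock chaperones higher and turned the OXPHOS and male-biased medians to -0.01 and -0.02, its median over all genes being -0.02. The cause was not tested.

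The count of rhythm differences, 0, became 1 with no filter, 13 in DESeq2, 1 with the Raptor arm, 1 without knockout ZT 10 replicate 3 and 0 to 1 without a replicate number. Replicate numbers did not pair the mice: over 18 same-numbered pairs the correlation of deviations ran from -0.33 to 0.23, and 6 pairs correlated best with their own number. With the number as a replicate block 4887 daily mean and 1 rhythm differences were called, and with a block of pairs within each time 4505, 3 and, for night minus day, 2. Counts at single times depended most on the libraries kept. Without the 3 libraries of lowest weight they were 1093 at ZT 2, 647 at ZT 10, 970 at ZT 14, 1323 at ZT 18 and 895 at ZT 22. Main counts from ZT 2 to ZT 22 were 561, 868, 1029, 640, 736 and 497. Without a replicate number they were 133 to 178 at ZT 2, 129 to 560 at ZT 6, 216 to 489 at ZT 10, 195 to 305 at ZT 14, 106 to 353 at ZT 18 and 108 to 132 at ZT 22. Without single libraries they were 274 to 784, 475 to 1099, 467 to 1463, 313 to 857, 366 to 986 and 237 to 642 in that order. The count of 1463 was without Albumin-Cre ZT 10 replicate 1, and 467 and the other highest counts were without replicate 2 of that group. Rhythmic genes numbered 1001 to 1521 in Albumin-Cre and 1362 to 1660 in the knockout without a replicate number, and 2432 to 3362 and 2616 to 3187 without single libraries. These fits have fewer libraries per time. Genes under 1 RPM, fewer than about 10 reads a library, were not tested in these counts, except with no filter.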

Other observations

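Further gene groups were read from the same comparison, as counts with no explanation. They stand beside 20.6% of all genes called higher and 17.6% lower. Of 32 tested ER chaperones and genes of the unfolded protein response 11 were higher and 2 lower, with the sensor kinase gene Eif2ak3 (PERK) at 0.78, the sensor Atf6 at 0.48 and the chaperone Hspa5 at 0.18. Of 40 genes of oxidative phosphorylation and mitochondrial biogenesis 9 were higher and 3 lower, led by Ppargc1a, Uqcrc1 (0.50) and Esrra (0.44). Without the 3 libraries of lowest weight 11 of these genes were lower. Of 32 proteasome subunits 5 were higher and 6 lower, shares near the 20.6% and 17.6% of all genes. In nucleotide synthesis 6 of 25 were higher, among them the purine enzyme gene Paics (0.60), and 4 were lower. Transketolase Tkt, at -0.62, was the furthest of 3 lower genes among 8 of the pentose phosphate pathway, where 1 was higher. Tkt had medians of 64.3 RPM in Albumin-Cre, 47.0 RPM in the Tsc1 knockout and 34.1 RPM in wild type, on the scale over 4 groups.

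In amino acid catabolism and the urea cycle 7 of 31 genes were lower and 6 higher, near the 17.6% and 20.6% of all genes. Beside Oat and Arg1, the alanine transaminase Gpt was at -0.78, while Asl was at 0.50 and Otc at 0.42. Among 29 cytochrome P450 genes and xenobiotic regulators 9 were lower and 6 higher. Cyp2b9 (-1.80) and Cyp2b10 (1.59), close paralogs, moved in opposite directions, and the sensor gene Nr1i2 (PXR) was at -0.55. Of 10 tested female-biased genes 4 were lower and 3 higher, Cyp17a1 at 1.21 with medians of 13.1, 46.5 and 47.9 RPM in the same order. The fetal and liver tumour list had 5 of 17 higher, with Afp, alpha-fetoprotein, at 0.97, and 3 lower. Of 14 immediate early genes 5 were higher, Klf6 at 0.88 and Jun at 0.66, and 3 lower, Zfp36 at -0.89. The 2 tested markers of pancreas, gut and fat tissue were not called.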
